A study of Arabidopsis thaliana with 14 samples.

Results

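Serine carboxypeptidase-like (SCPL) genes were examined across the tissues of the Arabidopsis thaliana seed. A gene entered if its probe set on the array is assigned to it alone and its symbol is scpl, in upper or lower case, followed by a number. 29 genes met this condition, and the 10 with the highest mean signal in any seed compartment were chosen by that signal. Further SCPL probe sets, 2 in number, match several genes and were not used, and 20 of the 49 genes with such a symbol in the RefSeq annotation were not analysed here. Because the highest compartment of a gene chose it, that value is a description, and differences that include it are given without a test.

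SCPL proteins are hydrolases with a serine, aspartate and histidine triad. Some are true carboxypeptidases, which cut single residues from the C-terminal end of proteins in the vacuole or the cell wall. Others have become acyltransferases, which take an acyl group from a glucose ester and build, among other things, the sinapate esters of seeds and leaves. Seeds use carboxypeptidases together with cysteine and aspartic proteases to process and later to mobilise stored protein, and the same kinds of protease act when cells of the endosperm and seed coat die.

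The seeds were of accession Ws-0, with no transgene or treatment named, at the mature green stage, when the cotyledons extend to the chalazal pole and no seed coat layer has collapsed. They came from plants under continuous light, and were fixed in ethanol and acetic acid, embedded in paraffin, sectioned and laser-captured. The 6 captured compartments were embryo proper, micropylar endosperm (around the root tip), peripheral endosperm, chalazal endosperm (where the seed is supplied from the mother plant), chalazal seed coat and the rest of the seed coat. Whole seeds from sections formed the last group, and each of the 7 groups had 2 arrays, 14 in all, called biological replicates, though the labels do not say which plants each came from. The p-values below therefore measure the spread between these samples. A few nanograms of RNA were amplified per sample, so fewer cells of a type in a capture and less RNA per cell cannot be told apart.

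Marker genes were read first. STOMAGEN, YAB3 and EXPA4 were taken from earlier results of these data, so their pattern is no independent check of the captures. STOMAGEN, a secreted peptide that promotes stomata, had a mean signal of 4047 ± 1504 (SD, n = 2) in embryo arrays, and the other compartment means did not exceed 32.0. YAB3, a transcription factor gene of lateral organs, was at 1767 ± 298 in the embryo and at most 95.0 in the other compartments. The expansin gene EXPA4 was at 12682 ± 587 in micropylar endosperm and at most 1641 in the other compartments. BAN, an enzyme of proanthocyanidin synthesis, was at 773 ± 588 in chalazal seed coat and at most 30.2 in the other compartments. The subtilase gene ARA12 was at 15565 ± 5756 in seed coat and 7773 ± 3323 in chalazal seed coat, against 529 to 1523 in embryo and endosperm. DELTA-VPE, a protease gene also on the seed coat list, was highest in seed coat (1919 ± 259), but lower in chalazal seed coat (624 ± 119) than in peripheral and chalazal endosperm (837 ± 35.4 and 1515 ± 902), and so did not set the chalazal seed coat apart from the endosperm. AGL62, an endosperm gene of earlier stages, was low everywhere and as high in chalazal seed coat (109.9 ± 24.7) as in chalazal endosperm (80.3 ± 54.5), and the other loci of these lists were not named here, 3 of 5 for embryo, 3 of 5 for endosperm, 4 of 7 for seed coat and all 3 for phloem. Replicate arrays correlated with Pearson's r of 0.812 (seed coat, the lowest) to 0.929, and array medians ran from 133.8 to 202.6, with the seed coat arrays (194 and 203) among the highest.

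Signals of different probe sets cannot be set against each other as amounts of RNA, so the ranking below only says how the genes were chosen. The last genes inside the threshold were scpl46 with a highest compartment mean of 459 and scpl42 with 457. Just outside lay scpl25 with 431 and scpl50 with 366. All 10 members passed the filter on low signals, and of the 19 genes below them 3 passed.

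**Figure D1:**
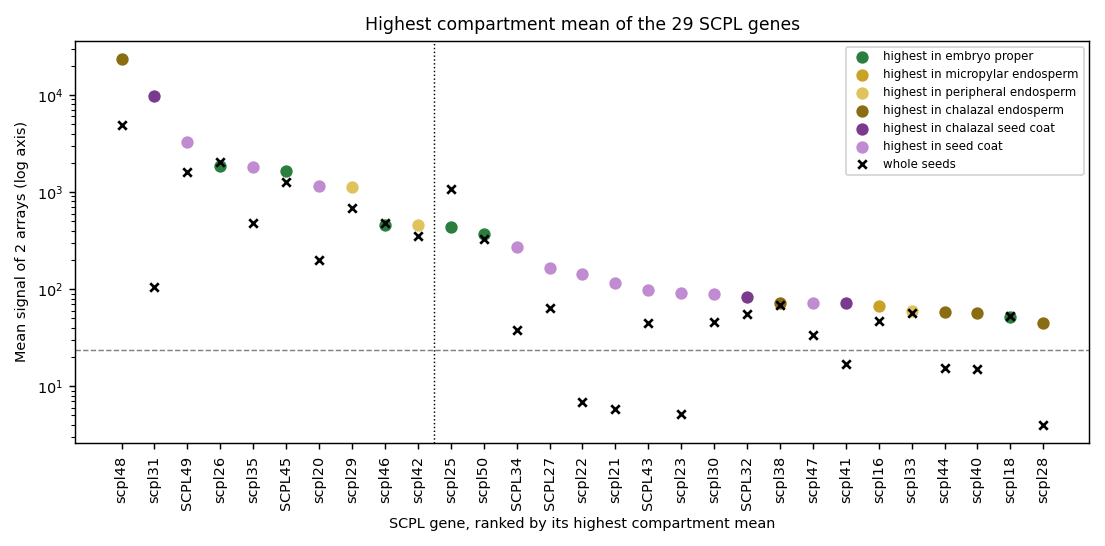
Highest compartment mean signal (points, log axis, coloured by the compartment that held it) and whole-seed mean (crosses) of the 29 SCPL genes in rank order; means of 2 arrays. The dotted line marks the threshold after the tenth gene, and the dashed line the floor of 23.44; scpl48 (23463) and scpl31 (9708) lie highest.

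No compartment held the highest signal of most members. The embryo held it for 3 (scpl26, SCPL45 and scpl46) and the seed coat for 3 (SCPL49, scpl35 and scpl20). The peripheral endosperm held it for 2 (scpl29 and scpl42), the chalazal endosperm for scpl48, the chalazal seed coat for scpl31 and the micropylar endosperm for none. Over all probe sets tested the shares were, in the same order, 20.6%, 22.1%, 9.60%, 16.2%, 20.2% and 11.2%. The highest compartment mean was only 1.005-fold the next for scpl26 and 1.07-fold for scpl42. For 5 members, namely scpl48, scpl31, SCPL45, scpl20 and scpl46, both arrays of the highest compartment lay above every other compartment array, which held for 37.7% of all probe sets tested. Between their highest and lowest compartment the members differed by 1.78 (SCPL49) to 8.53 (scpl31) on the log2 scale. Of all probe sets tested, 99.5% had a smaller range than scpl31, 97.3% a smaller one than scpl48 and 42.0% a smaller one than SCPL49. These ranges include the highest compartment, which chose the members but not the other probe sets, so the shares only describe.

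**Figure D2:**
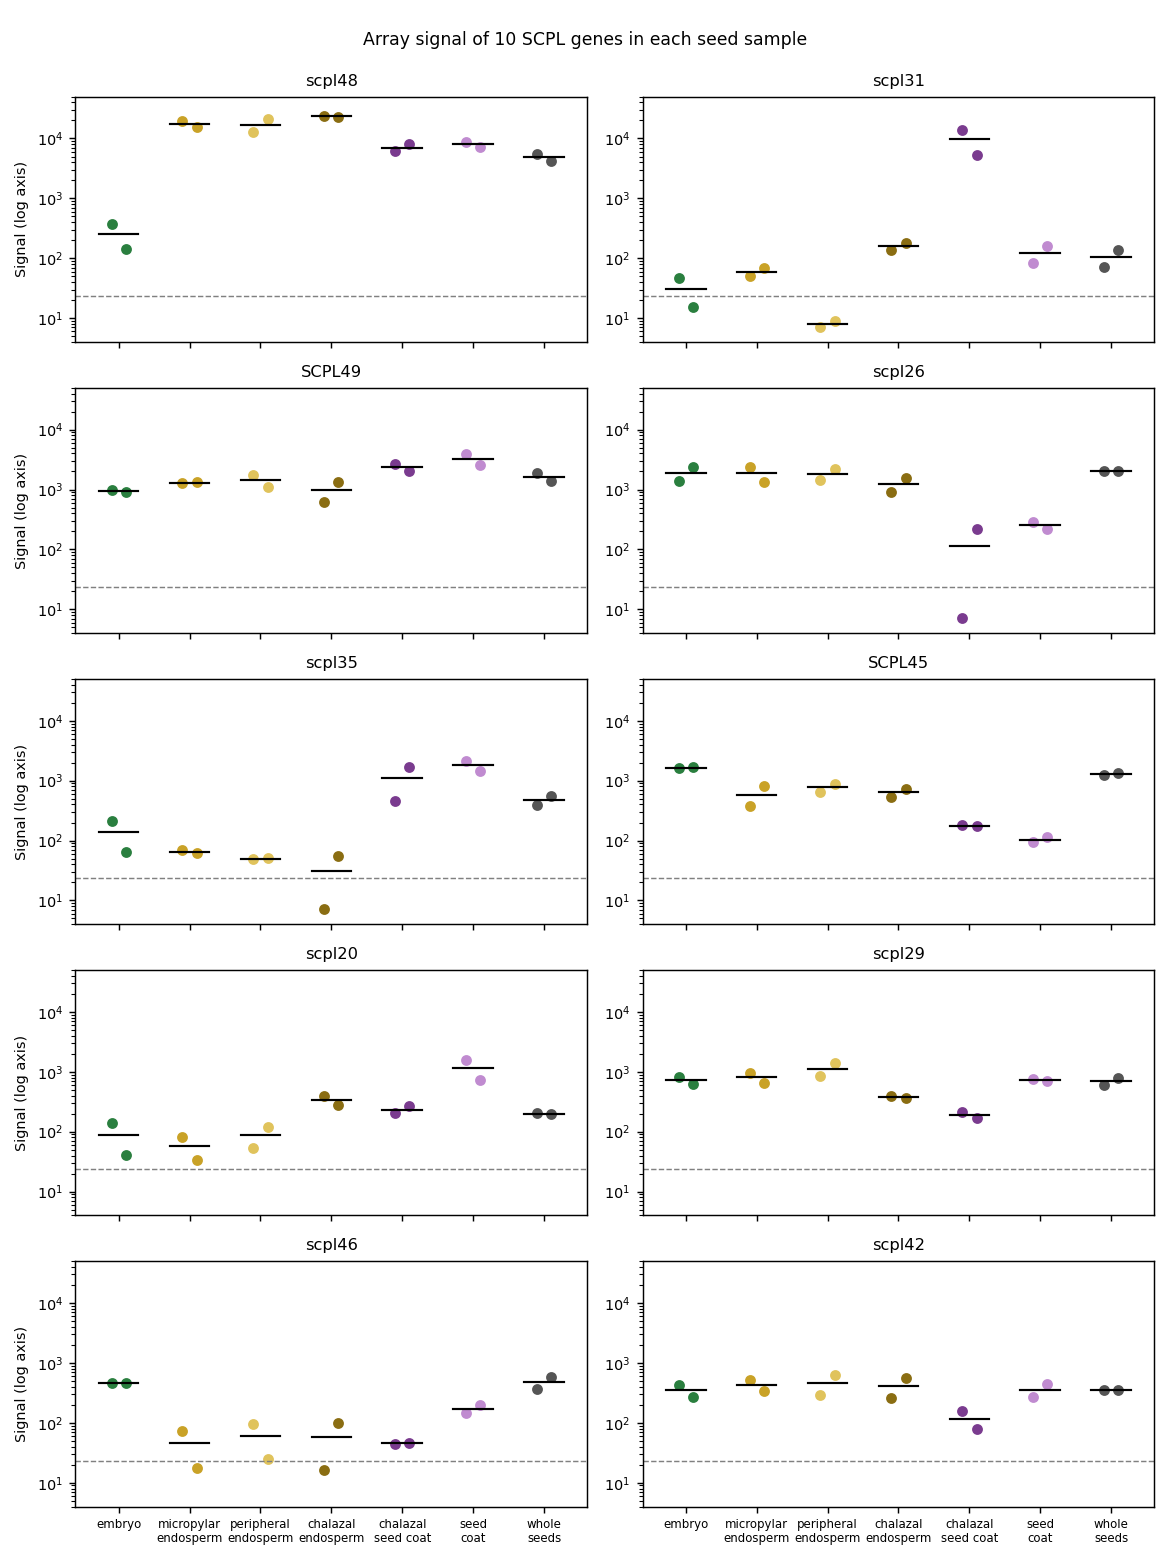
Signal (log axis) of the 10 members, 1 panel each, in the 6 compartments and whole seeds. Points are single arrays, bars are means of 2 arrays and the dashed line is the floor of 23.44; scpl48 is low only in the embryo, and scpl31 is high only in chalazal seed coat.

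For each member, the 15 pairs of groups that leave out its highest compartment were tested with limma. Fits ran over all 14257 probe sets that passed the filter, and p-values were adjusted within each pair over all of them. Of these 150 tests, 53 were called at an adjusted p under 0.05 (35.3%), where the same pairs called 18% over all probe sets. Among compartments 37 of 100 were called (all probe sets 19.4%), and between compartments and whole seeds 16 of 50 (all probe sets 15.2%). Members were chosen for a high compartment mean and the other probe sets were not, so these shares are not directly comparable. The counts hold 15 tests and 3 calls of scpl31, which passed the filter only through the compartment that chose it. They also hold 15 tests and 4 calls of scpl46, which passed only through the embryo, which chose it, and whole seeds. The calls were spread unevenly, from 11 of 15 for scpl48 to 2 of 15 for SCPL49 and for scpl20. 23 of the 53 calls held under each of the alternatives that applied to them, among 22, and the arrays or settings that ended the others are given with them below.

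scpl48 (AT3G45010) had a high signal in every tissue but the embryo. It is known in Arabidopsis as a marker of developmentally controlled cell death, and its own substrates are not established. Replicate signals in the embryo were 369 and 143. They were 19386 and 15630.4 in micropylar endosperm, 12919 and 21297 in peripheral endosperm and 23744 and 23181 in chalazal endosperm, the compartment that chose it. Chalazal seed coat gave 6155 and 7969, seed coat 8788 and 7207, and whole seeds 5504 and 4282. The endosperm arrays were highest, the seed coat arrays intermediate and both embryo arrays far below all others, with no overlap between these 3 levels.

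The embryo signal of scpl48 was 75.6-fold lower than that of micropylar endosperm (log2 difference -6.24 ± 0.38 SE, adjusted p = 3.37e-08) and 72.1-fold lower than that of peripheral endosperm (-6.17 ± 0.38, adjusted p = 3.99e-08). It was 30.4-fold lower than in chalazal seed coat (adjusted p = 9.07e-08), 34.6-fold lower than in seed coat (adjusted p = 1.24e-07) and 21.1-fold lower than in whole seeds (adjusted p = 4.77e-06). All 5 differences held under every alternative. The embryo replicates differed from each other more on the log2 scale than those of any other group, and the difference from micropylar endosperm was -6.92 if embryo replicate 1 was left out and -5.56 if embryo replicate 2 was, with shifts of the same size in the other 4. Embryo replicate 1 was the higher embryo array for 8 of the 10 members, all but scpl26 and SCPL45, and its part in these values was not tested. Against chalazal endosperm the embryo was 101.9-fold lower, which was not tested.

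Outside the embryo the differences of scpl48 were small. Micropylar and peripheral endosperm overlapped (0.07 ± 0.38, adjusted p = 1), as did chalazal seed coat and seed coat (-0.18 ± 0.38, adjusted p = 0.794). Micropylar endosperm was 2.49-fold above chalazal seed coat (adjusted p = 0.0152), 2.19-fold above seed coat (adjusted p = 0.0367) and 3.59-fold above whole seeds (adjusted p = 0.00576). Peripheral endosperm was 2.37-fold, 2.08-fold and 3.42-fold above the same groups (adjusted p = 0.0202, 0.0496 and 0.0096). These 6 calls were less firm. Without micropylar replicate 1 the calls against chalazal seed coat and whole seeds were lost (adjusted p = 0.107 and 0.0685), and without peripheral replicate 2 those of the peripheral endosperm were lost (adjusted p = 0.209, 0.355 and 0.127). The calls against chalazal seed coat also fell away without its replicate 1 (adjusted p = 0.105 and 0.129), and those against whole seeds without whole-seed replicate 2 (0.08 and 0.113) or, for the peripheral endosperm, replicate 1 (0.0552). The calls against seed coat were lost without either micropylar, seed coat or whole-seed array for micropylar endosperm (adjusted p from 0.0501 to 0.189) and without any of 12 arrays, all but the embryo's, for peripheral endosperm (0.0504 to 0.355). With no intensity trend in the fit, all but that of micropylar endosperm against whole seeds were lost (0.0557 to 0.134). Both calls against seed coat were also lost with no filter (0.0798 and 0.102) or quantile normalization (0.111 and 0.0887), and that of peripheral endosperm with no floor (0.0615) or the compartment arrays alone (0.0636). Against chalazal seed coat, that of micropylar endosperm was lost with quantile normalization (0.0633) and that of peripheral endosperm with no filter (0.0548).

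Other vacuolar and cell death proteases were read from a list of 14 loci, of which 8 are named on the array, all of them tested. The list was chosen with earlier results of these data known. In the embryo 6 of the 8 were lower than in micropylar endosperm and 0 higher (all probe sets 6.19% lower, 5.56% higher), with a median difference of -3.07 against 0.03 over all probe sets. Against peripheral endosperm 4 were lower and 0 higher (all probe sets 5.23% and 4.16%, median -2.98). Against chalazal endosperm 4 were lower and 2 higher (all probe sets 9.24% and 9.17%, median -3.41). For seed coat 6 were lower and 2 higher (16% and 16.5%, median -2.74), and for chalazal seed coat 5 and 2 (17.5% and 18.1%, median -2.81). Wherever 2 were higher in the embryo, they were BETA-VPE, the vacuolar processing enzyme that matures seed storage proteins, and the aspartic protease AT1G62290. Without 1 of several arrays fewer of them passed, and the lowest counts were 4 lower against micropylar endosperm, 0 higher against chalazal endosperm and 5 lower against seed coat.

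4 of these proteases had the low embryo signal of scpl48. The aspartic protease AT4G04460, used like scpl48 as a marker of developmental cell death, had a mean of 757 ± 808 in the embryo, 45824 ± 4630 in chalazal endosperm and 4416 ± 682 in seed coat (embryo against chalazal endosperm -6.52 ± 0.58, adjusted p = 9.89e-07). ALPHA-VPE, a cysteine protease of the vacuole, was at 133.6 ± 98.3 in the embryo and 13040.0 ± 1923 in peripheral endosperm (-6.83 ± 0.49, adjusted p = 1.95e-07), but at only 531 ± 52 in chalazal seed coat. DELTA-VPE, known from cell death in the inner integument of the young seed coat, had both embryo arrays under the floor and 1919 ± 259 in seed coat (embryo against seed coat -6.35 ± 0.48 or below, adjusted p = 1.34e-07). AT4G01610, a cathepsin B-like cysteine protease, also had both embryo arrays under the floor and was highest in chalazal seed coat, at 13300.2 ± 4639 (embryo against chalazal seed coat -9.10 ± 0.38 or below, adjusted p = 2.4e-10). Each of these 4 differences held under every alternative. Without embryo replicate 1 those of AT4G04460 and ALPHA-VPE were -7.94 and -7.66, and without embryo replicate 2 they were -5.10 and -5.997. The genes shared the low embryo but not the order of the other tissues.

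**Figure D3:**
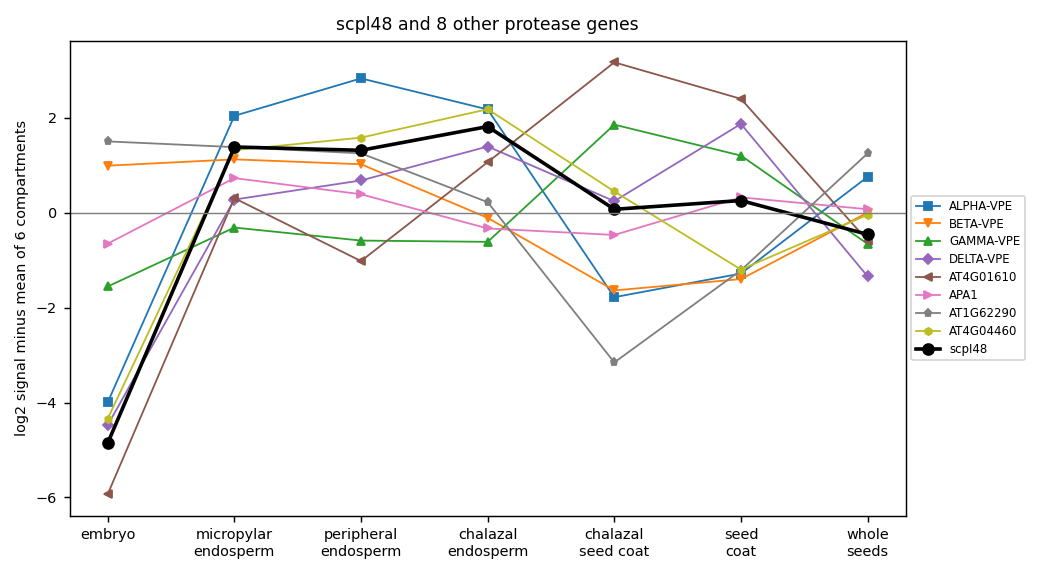
log2 signal of scpl48 (thick black line) and of 8 other protease genes in each group, minus that gene's mean over the 6 compartments; means of 2 arrays. Embryo values lie far below 0 for scpl48, ALPHA-VPE, DELTA-VPE, AT4G01610 and AT4G04460, and not for BETA-VPE and AT1G62290.

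SCPL49 (AT3G10410), a carboxypeptidase Y type enzyme of the vacuole, varied least among the members. Its signals were 987 and 925 in the embryo, 1261 and 1338 in micropylar, 1760 and 1102 in peripheral and 630 and 1357 in chalazal endosperm. Chalazal seed coat gave 2696 and 2072, seed coat 3907 and 2583, and whole seeds 1882 and 1366. The 4 seed coat arrays were the highest of all, and the embryo, endosperm and whole-seed arrays mostly overlapped. The embryo was 2.47-fold below chalazal seed coat (-1.31 ± 0.39 on the log2 scale, adjusted p = 0.0161) and chalazal endosperm 2.56-fold below it (adjusted p = 0.0187). The first call was lost without either embryo array (adjusted p = 0.0568 and 0.0734) or chalazal seed coat replicate 1 (0.106), the other without chalazal endosperm replicate 1 (0.226) or chalazal seed coat replicate 1 (0.123), and with no intensity trend (0.0555).

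scpl31 (AT1G11080), a gene with no role given here, had a high signal in the chalazal seed coat and a low one in the other 5 compartments. Its 2 signals there were 14103 and 5312, a mean of 9708 ± 6216. The seed coat gave 84.7 and 162, chalazal endosperm 138 and 178, and micropylar endosperm 51.3 and 68.3. The embryo gave 46.5 and 15.7, whole seeds 71.6 and 139, and peripheral endosperm 7.25 and 8.80, both under the floor. Both chalazal seed coat arrays stood more than an order of magnitude above every other array, though they also differed strongly from each other.

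The chalazal seed coat signal of scpl31 was 73.8-fold that of the rest of the seed coat (6.21 ± 0.71 on the log2 scale), 55.3-fold that of chalazal endosperm and at least 369-fold that of peripheral endosperm. These values chose the gene and have no test. BAN, the seed coat gene above, was also highest in this compartment and also differed between its 2 arrays (773 ± 588), and its part in the scpl31 values was not tested. Whole seeds reached 1.09% of the chalazal seed coat mean.

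scpl31 passed the filter on low signals only through chalazal seed coat, the compartment that chose it. In no other group did both arrays lie above their array's median. The tests below therefore compare low signals that were tested only because of that compartment. At its low level elsewhere, scpl31 was lower in the embryo than in chalazal endosperm (log2 difference -2.25 ± 0.71, with 1 of the 2 embryo arrays raised to the floor, adjusted p = 0.0365). Peripheral endosperm was below chalazal endosperm (-2.74 ± 0.71 or below, adjusted p = 0.0324) and below seed coat (-2.32 ± 0.71 or below, adjusted p = 0.0233). Each of these 3 calls was lost without 1 of several arrays. The first was lost without either array of either group (adjusted p from 0.0564 to 0.217), as was the next (0.116 to 0.187). The last was lost without either peripheral array (0.0974 and 0.0968) or seed coat replicate 2 (0.12). With a floor at the 40th percentile all 3 were lost, the adjusted p being 0.347, 0.468 and 0.612. With no filter the first and the next were lost (0.0777 and 0.0817), the first also with no floor (0.0566), and the last with division by the array median (0.052) or quantile normalization (0.0634).

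scpl35 (AT5G08260) and scpl20 (AT4G12910), both without a role given here, had their highest signal in the seed coat. scpl35 gave 2152 and 1455 in seed coat and 462 and 1719 in chalazal seed coat, which overlapped. It gave 212 and 63.2 in the embryo, 68.6 and 61.6 in micropylar, 48.8 and 51.3 in peripheral and 7.23 and 55.4 in chalazal endosperm, the first of these under the floor. Whole seeds gave 396 and 560.5, above every embryo and endosperm array. The 4 seed coat arrays lay above all embryo and endosperm arrays.

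In chalazal seed coat, scpl35 was 13.7-fold above micropylar endosperm (micropylar minus chalazal seed coat -3.78 ± 0.75 on the log2 scale, adjusted p = 0.00123), 17.8-fold above peripheral endosperm (adjusted p = 0.00055) and 24.7-fold above chalazal endosperm (adjusted p = 0.000318). Whole seeds were 13.1-fold above chalazal endosperm (adjusted p = 0.00356), and both of these folds are with 1 chalazal endosperm array raised to the floor. These 4 calls held under every alternative, but their size rested on single arrays. The log2 differences of micropylar, peripheral and chalazal endosperm from chalazal seed coat were -4.73, -5.10 and -5.58 without chalazal seed coat replicate 1, and -2.83, -3.21 and -3.68 without its replicate 2. Without chalazal endosperm replicate 1, the differences of that tissue were -4.01 from chalazal seed coat and -3.09 from whole seeds (adjusted p = 0.0484), and without its replicate 2 they were -5.25 and -4.33. The chalazal seed coat was also 7.70-fold above the embryo (adjusted p = 0.00603), a call lost without embryo replicate 2 (adjusted p = 0.092) or chalazal seed coat replicate 2 (0.0956). Whole seeds were 7.24-fold above micropylar and 9.41-fold above peripheral endosperm (adjusted p = 0.0246 and 0.0157), and these were lost without either array of either group compared (adjusted p from 0.0986 to 0.168 and from 0.0847 to 0.141), with no floor (0.0851 and 0.0666) or with no filter (0.0665 and 0.051).

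scpl20 gave 1572 and 716 in seed coat, more than in any other array. It gave 391 and 276 in chalazal endosperm and 202 and 264 in chalazal seed coat. The embryo gave 139 and 40.03, micropylar endosperm 83.0 and 33.1, peripheral endosperm 53.1 and 119.8, and whole seeds 203 and 199. Both chalazal tissues thus lay between the seed coat and the remaining compartments. Micropylar endosperm was 6.26-fold below chalazal endosperm (-2.65 ± 0.75, adjusted p = 0.0399) and 4.41-fold below chalazal seed coat (-2.14 ± 0.75, adjusted p = 0.04). The first call was lost without either micropylar, chalazal endosperm or whole-seed array (adjusted p from 0.0609 to 0.266), the next without micropylar replicate 2 or either chalazal seed coat or whole-seed array (0.0552 to 0.271). Without micropylar replicate 1 the latter was -2.80 (adjusted p = 0.0383). Both were lost with no floor (0.0648 and 0.0564), no filter (0.0966 and 0.0828) or the compartment arrays alone (0.0589 and 0.0536).

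For scpl20 the log2 difference between the chalazal part and the rest was 2.34 ± 0.65 within the endosperm and -2.20 ± 0.75 within the seed coat, without a test. For scpl31 it was 2.07 ± 0.62 and 6.21 ± 0.71. The sign was thus opposite in the seed coat, a maternal tissue, and the endosperm for scpl20, and the same for scpl31.

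scpl26 (AT2G35780), SCPL45 (AT1G28110) and scpl46 (AT2G33530), for which no role is given here, had their highest compartment signal in the embryo. scpl26 gave 1398 and 2352 there, 2383 and 1349 in micropylar, 1425 and 2228 in peripheral and 896 and 1575 in chalazal endosperm. Chalazal seed coat gave 7.18, under the floor, and 218, seed coat 290.0 and 218, and whole seeds 2056 and 2008. Embryo and endosperm arrays overlapped, and all 4 seed coat arrays lay below them.

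For scpl26, chalazal seed coat was below micropylar endosperm by 4.65 ± 0.71 on the log2 scale (25.1-fold, adjusted p = 0.000133), below peripheral endosperm by 4.64 (adjusted p = 0.000127), below chalazal endosperm by 4.06 (adjusted p = 0.000599) and 28.4-fold below whole seeds (adjusted p = 0.000118). The array raised to the floor, chalazal seed coat replicate 1, set the size of these 4 differences but not the call. Without it the first was 3.04 (adjusted p = 0.000713) and without replicate 2 it was 6.26 (adjusted p = 9.44e-07), and the others shifted alike. Seed coat was 7.13-fold below micropylar endosperm (adjusted p = 0.00767), 7.09-fold below peripheral endosperm (adjusted p = 0.00771), 4.73-fold below chalazal endosperm (adjusted p = 0.0293) and 8.08-fold below whole seeds (adjusted p = 0.0062). The call between seed coat and micropylar endosperm was lost without micropylar replicate 1 (adjusted p = 0.0808), that with peripheral endosperm without peripheral replicate 2 (0.0752) and that with chalazal endosperm without either array of either group (0.0576 to 0.177), and all 4 were lost with no floor (0.0516 to 0.133). That with chalazal endosperm was also lost with no filter (0.0783) or no intensity trend (0.0724).

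SCPL45 stepped down from the embryo through the endosperm to the seed coat. It gave 1616 and 1678 in the embryo, 371 and 802 in micropylar, 659 and 893 in peripheral and 536 and 737 in chalazal endosperm. The values were 184 and 172 in chalazal seed coat, in seed coat 95.3 and 112.6, and whole seeds 1226 and 1326. The embryo arrays were the highest, whole seeds next, then the endosperm, whose parts overlapped, and then the chalazal seed coat and the seed coat. Seed coat was 5.26-fold below micropylar (2.40 ± 0.45 on the log2 scale, adjusted p = 0.000953), 7.40-fold below peripheral (adjusted p = 0.000225) and 6.07-fold below chalazal endosperm (adjusted p = 0.000527), and 12.3-fold below whole seeds (adjusted p = 9.93e-05). Chalazal seed coat was 4.31-fold below peripheral endosperm (adjusted p = 0.00198) and 7.16-fold below whole seeds (adjusted p = 0.000212). These 6 calls held under every alternative. Chalazal seed coat was also below micropylar and chalazal endosperm (1.61 and 1.82 on the log2 scale, adjusted p = 0.012 and 0.00704), calls lost without micropylar replicate 2 (adjusted p = 0.162) and without chalazal endosperm replicate 2 (0.0576).

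scpl46 gave 462 and 455 in the embryo and 369 and 592 in whole seeds. It gave 73.3 and 17.3 in micropylar, 96.4 and 25.1 in peripheral and 16.1 and 98.7 in chalazal endosperm, with the lower micropylar and chalazal values under the floor. Chalazal seed coat gave 44.7 and 46.6, and seed coat 144 and 202. The embryo and whole-seed arrays lay above all others, and the endosperm replicates were far apart. scpl46 passed the filter on low signals only through the embryo, which chose it, and whole seeds. In no other group did both arrays lie above their array's median. The compartment tests below therefore compare low signals, and the whole-seed tests include a group that let the gene through. Of the 10 pairs of compartments tested 0 were called by limma at an adjusted p under 0.05 and 3 had an unadjusted p under 0.05, and the smallest adjusted p was that of micropylar endosperm against seed coat (0.0888). Whole seeds were 11.3-fold above micropylar endosperm (micropylar minus whole seeds -3.50 ± 0.85 on the log2 scale, adjusted p = 0.0159), 9.51-fold above peripheral endosperm (adjusted p = 0.0296), 9.73-fold above chalazal endosperm (adjusted p = 0.0157) and 10.3-fold above chalazal seed coat (adjusted p = 0.00727). In micropylar and in chalazal endosperm 1 array was raised to the floor, and without it the log2 differences were -2.67 and -2.25. All 4 calls were lost without whole-seed replicate 2 (adjusted p = 0.133, 0.211, 0.122 and 0.0697). Those against the endosperm parts were also lost without whole-seed replicate 1 (0.0704, 0.113 and 0.0602), and without micropylar replicate 2 (0.156), peripheral replicate 2 (0.305) or chalazal endosperm replicate 1 (0.182). Without the other array of each endosperm part the differences were -4.32, -4.22 and -4.32. The same 3 calls were lost with no filter (0.0572, 0.0935 and 0.0506), and that of peripheral endosperm with no floor (0.095) or quantile normalization (0.0524).

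**Figure D4:**
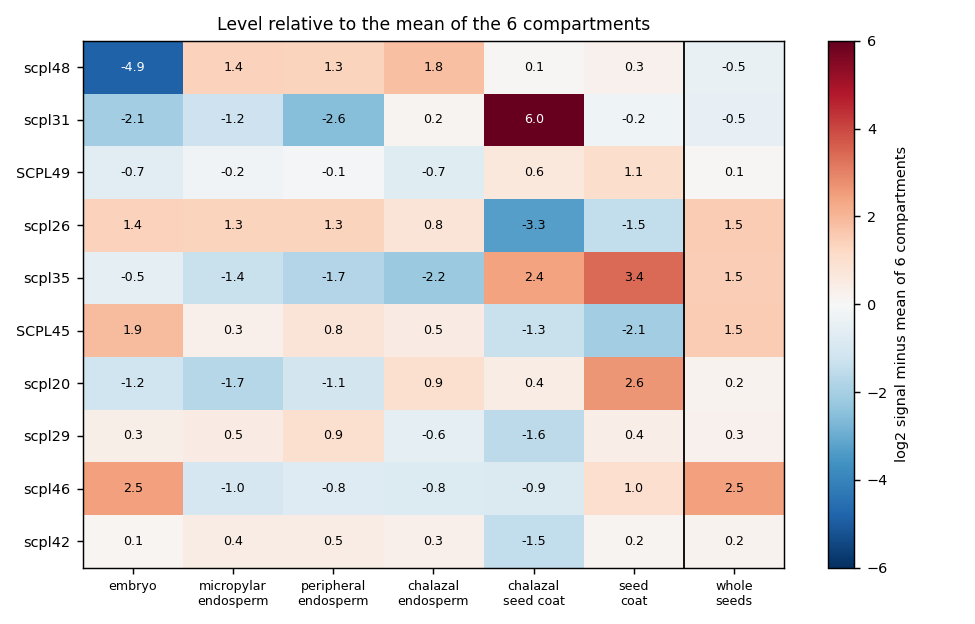
log2 signal of the 10 members (rows) in the 6 compartments and whole seeds (columns), each minus the gene's mean over the 6 compartments; means of 2 arrays. scpl31 and scpl35 lie farthest above 0 in chalazal seed coat, while scpl26, SCPL45, scpl29, scpl46 and scpl42 lie below 0 there.

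scpl29 (AT4G30810) and scpl42 (AT5G42240), again without a role given here, had signal in all compartments and their lowest in the chalazal seed coat. scpl29 gave 817 and 627 in the embryo, 954 and 661 in micropylar, 836 and 1426 in peripheral and 389 and 366 in chalazal endosperm. The chalazal seed coat signals were 216 and 166, those of seed coat 768 and 711, and whole seeds 605 and 775. The chalazal seed coat arrays were the lowest, the chalazal endosperm arrays the next, and the other groups overlapped. Chalazal seed coat was 3.78-fold below the embryo (1.92 ± 0.42 on the log2 scale, adjusted p = 0.00205), 4.19-fold below micropylar endosperm (adjusted p = 0.00143), 3.90-fold below the rest of the seed coat (adjusted p = 0.00569) and 3.61-fold below whole seeds (adjusted p = 0.0035). These 4 calls held under every alternative. The chalazal endosperm was 2.10-fold below micropylar endosperm, a difference that did not pass (adjusted p = 0.149).

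scpl42 gave 426 and 274 in the embryo, 510.0 and 346 in micropylar, 297 and 617 in peripheral and 263 and 559.5 in chalazal endosperm. Signals were 157 and 78.4 in chalazal seed coat, in seed coat 272 and 443, and whole seeds 357 and 355. The chalazal seed coat arrays lay below all others, and the other 6 groups overlapped. Chalazal seed coat was 3.79-fold below micropylar endosperm (1.92 ± 0.60 on the log2 scale, adjusted p = 0.0224), 3.08-fold below the embryo (adjusted p = 0.0438), 3.46-fold below chalazal endosperm (adjusted p = 0.0375) and 3.21-fold below whole seeds (adjusted p = 0.0445). All 4 calls were lost without chalazal seed coat replicate 2 (adjusted p = 0.146, 0.239, 0.205 and 0.231). The first was also lost without micropylar replicate 1 (0.142), and that against chalazal endosperm without its replicate 2 (0.25) or either whole-seed array (0.0533 and 0.0534). The calls against the embryo and whole seeds were each lost without any of 8 arrays, namely both embryo, both micropylar and both whole-seed arrays, peripheral replicate 2 and chalazal seed coat replicate 2 (adjusted p from 0.0512 to 0.239 and from 0.0513 to 0.231). With no filter the calls against the embryo, chalazal endosperm and whole seeds were lost (0.0684, 0.0626 and 0.0701), and with the compartment arrays alone those against the embryo and chalazal endosperm (0.0591 and 0.0526). With no floor the calls against the embryo and whole seeds were lost (0.0503 and 0.0525). Against whole seeds the call was also lost with division by the array median (0.0853), quantile normalization (0.0684) or the replicate number as a block (0.05).

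Read across the members, 27 of the 45 tests with the chalazal seed coat were called, where the same pairs called 27.8% over all probe sets. Of the 105 tests without it 26 were called (all probe sets 13.9%). It was below micropylar endosperm for 5 of the 9 members tested in that pair, namely scpl48, scpl26, SCPL45, scpl29 and scpl42 (all probe sets 15.5%), and above it for scpl35 and scpl20 (14.7%). Of 6 members tested against the embryo, it was below for scpl29 and scpl42 (all probe sets 18.1%). It was above for scpl48, SCPL49 and scpl35 (17.5%). The other members were not tested in this pair, because their highest compartment lies in it. Chalazal seed coat was 25.4-fold, 9.25-fold and 10.1-fold below the embryo for scpl26, SCPL45 and scpl46, and 262-fold above it for scpl31. For scpl26 and scpl31, 1 array was raised to the floor. The tested counts therefore do not give the balance over all members. Whole seeds were above the chalazal seed coat for 5 of 9, scpl26, SCPL45, scpl29, scpl46 and scpl42 (16.8%). They were below it for 0 (12.3%), and 0 had an unadjusted p under 0.05. scpl31 was 86.7-fold higher in chalazal seed coat than in whole seeds and 146-fold higher than in micropylar endosperm. It was untested in both pairs because that compartment chose it. The shares over all probe sets leave out no such probe set, so they are not directly comparable with these counts. The 5 members below whole seeds include scpl46, which passed the filter only through the embryo and whole seeds. Between micropylar and peripheral endosperm (0.302% of all probe sets called), limma called 0 of 8 members, and 0 had an unadjusted p under 0.05. On the log2 scale, chalazal seed coat lay more than 1 below seed coat for 5 of 10 members (all probe sets 20.9%). It lay more than 1 above it for scpl31 (16.6%). These values include scpl20 and scpl31, each chosen by a compartment of this pair, and only describe. Of the 6 members tested in this pair, limma called only scpl29 lower (adjusted p = 0.00569, all probe sets 7.77%). scpl26, scpl46 and scpl42 were not called (adjusted p = 0.101, 0.15 and 0.0746).

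Whole seeds were within the range of the compartment means for 8 of 10 members, as for 78.4% of all probe sets. The mean of scpl26 in whole seeds was 2032 ± 33.4, above its highest compartment at 1875 ± 675, and that of scpl46 was 481 ± 158, above 459 ± 5.08. Both excesses were smaller than the spread of the arrays involved. For scpl31, scpl20, scpl48 and scpl35, the whole-seed mean was only 1.09%, 17.6%, 20.9% and 26.5% of the highest compartment mean.

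**Figure D5:**
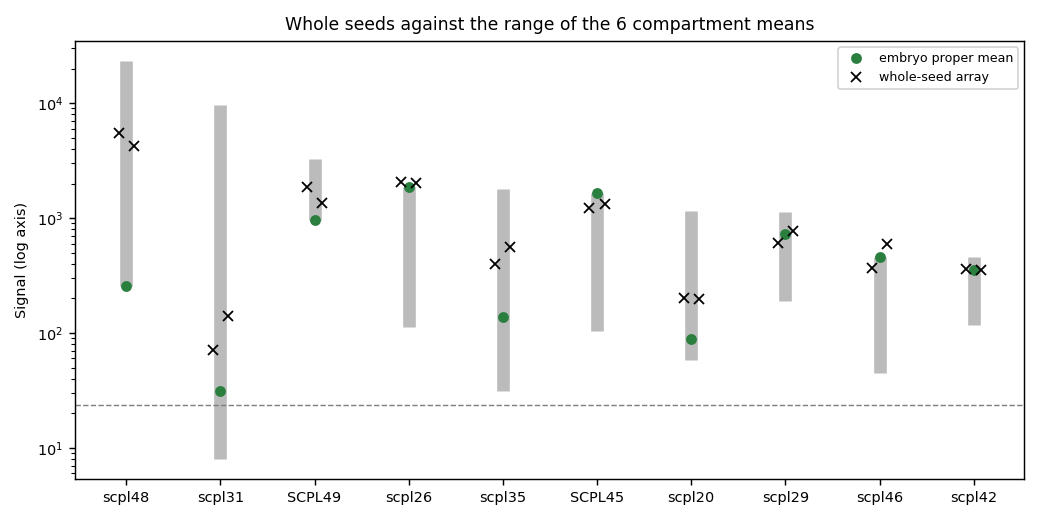
Whole-seed signal of each member (crosses, 2 arrays, log axis) against the range of its 6 compartment means (grey bars) and its embryo mean (points). For the 3 members highest in the embryo, scpl26, SCPL45 and scpl46, the crosses lie near the embryo mean. Those of scpl31 lie far below the top of its bar.

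SNG1 and SNG2, the SCPL acyltransferases that make the sinapate esters of leaves and seeds, were not analysed here. Of a list of 9 loci of sinapate ester metabolism 2 were tested, ALDH2C4, an aldehyde dehydrogenase that forms sinapic acid, and SDT, an acyltransferase that joins sinapoyl groups to spermidine. Both were higher in the embryo than in chalazal seed coat (all probe sets 18.1%). SDT had its highest mean in micropylar endosperm, 13356 ± 1891, against 1957 ± 374 in the embryo and 512 ± 345 in chalazal seed coat. That of ALDH2C4 was in seed coat, 2648 ± 284, against 2322 ± 742 in the embryo and 859 ± 482 in chalazal seed coat.

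Genes with the most similar profile were sought over the 14 arrays, which fall into 7 groups, by Pearson's r of log2 signal. The most similar to scpl48 were AT1G19200 (r = 0.967) and AT5G16230 (0.965), both highest in chalazal endosperm. For scpl31 they were AT2G37130 (0.961) and AT5G24580 (0.959), both highest in chalazal seed coat. The seed coat gene scpl35 was most like BGLU42 (0.965), a beta-glucosidase family member, and chr31 (0.962). scpl26 was most like the plastid ribosomal gene rps4 (0.968) and CR4 (0.961), and SCPL45 like AT2G42190 (0.962) and AT5G50370 (0.959). For the other members the highest r was 0.927 for scpl20 (AT1G68300), 0.925 for SCPL49 (TRM15), 0.904 for scpl46 (AT3G05470), 0.903 for scpl29 (AT3G25410) and 0.878 for scpl42 (AT1G74070).

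Among the members themselves the highest r over the 14 arrays were those of SCPL49 with scpl35 (0.794), scpl29 with scpl42 (0.790) and scpl26 with SCPL45 (0.768). The lowest were those of scpl31 with scpl29 (-0.87) and with scpl26 (-0.84). These values rest on the same arrays and carry no test. In the RefSeq gene table of assembly TAIR10.1, scpl28 lies next to scpl26 and scpl41 lies 3 genes from scpl42. Neither neighbour passed the filter, with highest compartment means of 44.8 for scpl28 and 71.4 for scpl41.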

How the data were processed

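RNA from 14 samples was hybridised to Affymetrix ATH1 arrays, which hold 22810 probe sets. The deposited values are linear intensities, which the authors computed in GCOS per the submitters' processing notes. Its version and scaling are not given in the sources used. They were used as deposited. The number of arrays limits the precision.

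After 64 controls were left out, a floor of 23.44 was set, which is the median of the arrays' 20th percentiles. Lower signals were replaced by it before log2 was taken. A probe set was tested if both arrays of a group lay above their array's median (14257 of 22746). limma 3.58.1 (R 4.3.3) estimated the 7 group means of each probe set from the 14 arrays together, with 7 residual degrees of freedom and an intensity trend. P-values were adjusted by Benjamini-Hochberg within each of the 21 pairs of groups and called under 0.05. With 2 arrays a group no permutation p can fall below 0.3333, so none is given. The fit was tested on simulated data.

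Means ± SD are of signals with n = 2; log2 differences are ± SE, and folds are of geometric means after the floor. Where both arrays of the lower group were at the floor, the difference is a lower limit; with 1 such array it depends on the floor. Genes came from the platform annotation updated by the RefSeq table; all 29 SCPL genes matched. All 10 members are named. The most similar genes are the 2 with the highest r for each member. Members, markers and the protease and sinapate ester lists were chosen with earlier results of these data known.

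Alternatives were no floor, a floor at the 40th percentile, no filter, division by the array median, quantile normalization, compartment arrays alone, no intensity trend, the replicate number as a block, and leaving out each array. Same-numbered arrays of different groups did not deviate together (21 correlations, -0.061 to 0.096), so replicate numbers were not taken as pairs.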

Additional observations from a re-analysis of the deposited data

Results flagged for a closer look

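scpl20 was picked out because its chalazal difference ran in opposite directions in the endosperm and in the seed coat. On every array its signal was higher in chalazal endosperm (391 and 276) than in micropylar (83.0 and 33.1) and peripheral endosperm (53.1 and 119.8), and lower in chalazal seed coat (202 and 264) than in the rest of the seed coat (1572 and 716). The log2 difference was 2.34 ± 0.65 in the endosperm and -2.20 ± 0.75 in the seed coat, and the difference between them was 4.54. It was not tested, because the seed coat signal chose the gene.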

How the results depend on the processing

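The count of member differences called was 53. It was 32 with the compartment arrays alone, where 100 of the 150 tests can be made, 37 with no filter and 41 with no floor, and between 47 and 53 with the median, the 40th percentile floor, quantile normalization, no intensity trend or the replicate block (52). Leaving out each array in turn gave 38 to 51. Calls held in every alternative numbered 23, and 30 held in all that kept every array. No called difference changed sign. Some uncalled differences did so when an array was left out, such as that of SCPL49 between embryo and chalazal endosperm (-0.51 to 0.60 on the log2 scale). No filter ended 16 calls, no floor 13, no intensity trend 7, quantile normalization 6, the compartment arrays alone 5, the 40th percentile floor 3 and the median 2. The replicate block ended 1 call, that of scpl42 between chalazal seed coat and whole seeds, and no other. Of the group contrasts, 24 member values were at least 1 on the log2 scale, 18 to 27 under the alternatives (24 with the block), 24 to 26 without 1 array, and none changed sign. Dividing each array by its median moved the median of all probe sets for seed coats against embryo and endosperm from -0.03 to -0.27. Signals near the floor carry no order, which limits scpl31 and scpl46 outside their high groups.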

Other observations

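Outside the 10 members, scpl25 (AT3G02110) was higher in whole seeds than in any compartment. Its whole-seed signals were 980.5 and 1152, a mean of 1066 ± 121, against 501 and 362 in the embryo and compartment means of 60.9 to 296 elsewhere. SCPL34 (AT5G23210) had its highest mean in seed coat, 274 ± 77.7, and compartment means of at most 112.0 in the others. Whole seeds gave 38.1 ± 4.67 for SCPL34. Both genes were picked after their values were seen.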
